A study of Mus musculus with 3 samples.

Results

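Among the stromal vascular fraction cells of the inguinal fat pad, 192 of 33663 barcodes (0.570%) were pericytes by a rule on their counts: at least 1000 unique molecular identifiers (UMIs) in all, at most 10% of them mitochondrial, at least 5 UMIs of *Rgs5*, at most 1 of *Myh11*, none of *Pdgfra*, *Epcam* or *Pecam1*, and at most 1 of *Krt14*. Of these, 56 came from the wild-type library, 17 from the *Mgp*-KO library and 119 from the *Pd*-KO library. They were described against 1546 smooth muscle barcodes of the same libraries, taken as those with at least 2 UMIs of *Myh11* and at least 5 each of *Acta2* and *Tagln*. The members were thus chosen by their measured counts, mainly of *Rgs5* and *Myh11*, and the smooth muscle barcodes by those of *Myh11*, *Acta2* and *Tagln*, so every difference between these classes is a description and carries no test.

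The study concerned the part of matrix Gla protein (*Mgp*) in the formation of white fat and in its fibrosis; this protein is an extracellular inhibitor of calcification and of bone morphogenetic proteins. Single-cell RNA-seq was done on mice of 4 weeks of age, with both sexes pooled, in 3 libraries: wild-type, *Mgp*-KO (*Mgp* deleted in the whole animal) and *Pd*-KO (both *Mgp* alleles floxed, with a *Pdgfra*-*Cre* transgene, so that deletion takes place in cells that express, or descend from cells that expressed, *Pdgfra*). No library of floxed mice without Cre was used here, so wild-type cells were the only control for both knockouts. Cells had been freed with collagenase, and dead and CD45-positive cells had been removed by sorting. With 1 library per genotype there is no replicate error, so no p-value is given. All intervals are 95% intervals for counting error only, and differences between genotypes and between libraries cannot be told apart.

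Pericytes are the mural cells of capillaries and small venules. They lie within the basement membrane they share with the endothelium, are recruited by endothelial platelet-derived growth factor through the receptor *Pdgfrb*, and are kept in place in part by signals through *Notch3*. Vascular smooth muscle cells, the mural cells of arteries and larger veins, differ from them in the amount of contractile protein, and cells of intermediate kind line the vessels between. In fat, some mural cells have been described as precursors of adipocytes.

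The members held 326281 UMIs in the wild-type library, 54024 in the *Mgp*-KO library and 540445 in the *Pd*-KO library. The median member had 4957, 2864 and 4339 UMIs, in the same order, against 7220, 4613.5 and 4310 in a smooth muscle barcode. Levels are given below as UMIs of a gene per 1000000 UMIs, both summed over the barcodes of a class (CPM), and 3 UMIs, the limit that a count of 0 allows, amounted to 9.19 CPM in wild-type, 55.5 CPM in *Mgp*-KO and 5.55 CPM in *Pd*-KO pericytes. The *Mgp*-KO pericytes were thus the least well measured. The headers of the count files named Cell Ranger version 4 for wild-type and 7.1.0 for both knockouts, and the knockout members had more of their UMIs in genes of at least 100 kb (6.94% in wild-type, 14.2% in *Mgp*-KO, 17.5% in *Pd*-KO), so the software version cannot be told apart from the knockouts. Between 37 and 42 kept barcode sequences were shared by any pair of libraries, and none was a pericyte in both.

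The label was checked against pericyte markers that the rule had not used. *Kcnj8* and *Abcc9*, which encode the pore and the sulfonylurea receptor of the ATP-sensitive potassium channel of mural cells, lie side by side on the minus strand of chromosome 6 (GRCm38, 142564837 to 142571614 and 142587862 to 142702315). At least 1 UMI of *Kcnj8* was present in 29 of 56 wild-type members, 7 of 17 *Mgp*-KO members and 98 of 119 *Pd*-KO members. *Abcc9* was found in 37, 11 and 112 of them. *Atp13a5*, a pericyte marker of brain, was at 0 in wild-type and *Pd*-KO members and had 1 UMI in *Mgp*-KO members. Neither channel gene was detected in 17 of the 56 wild-type members, in 5 of the 17 from *Mgp*-KO or in 4 of the 119 from *Pd*-KO, at the depths given above.

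Markers of other cell types were also counted. The 11 adipose progenitor markers outside the rule summed to 6789 CPM in wild-type members, 1259 CPM in *Mgp*-KO members and 1068 CPM in *Pd*-KO members, with *Gsn* the most abundant in each and none, 4 and none of the 11 at 0. In wild-type, 914 of the 2215 UMIs of these markers lay in 1 member with 5 *Rgs5* UMIs, and the sum was 4286 CPM without it, a value computed after seeing the data. Free RNA, summed over barcodes that had only 10 to 100 UMIs, gave the same list 13056, 22486 and 17916 CPM. *Dpt*, a matrix gene of progenitors, was detected in 35 of 56 wild-type members but in 2 of 17 and 12 of 119 knockout members. Schwann cell markers stood at 1103 CPM in wild-type members, against 0 of 8 genes detected in *Mgp*-KO and 9.25 CPM in *Pd*-KO members. The 10 leukocyte markers summed to 3.06, 0 and 1.85 CPM and *Ptprc* was at 0 in all members. The 11 endothelial markers outside the rule summed to 300, 167 and 117 CPM, below the 606, 412 and 1114 CPM of free RNA. Epithelial markers outside the rule summed to 85.8, 0 and 9.25 CPM, mesothelial markers to 27.6, 0 and 1.85 CPM, skeletal muscle markers to 3.06, 0 and 3.70 CPM and cycling markers to 313, 1092 and 392 CPM. Progenitor, Schwann cell, endothelial, epithelial and mesothelial markers were thus highest in the wild-type members, and cycling markers in the *Mgp*-KO members. The 8 adipocyte markers summed to 12976, 17474 and 10806 CPM, nearly all of it *Fabp4*. With members removed that had any UMI of 5 markers of other cells, among them *Cdh5*, *Ptprc*, *Adipoq* and *Dpt*, 19, 15 and 105 were left.

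The share of pericytes differed between the libraries. They were 0.493% of the kept barcodes in wild-type (95% Clopper-Pearson interval 0.373 to 0.640), 0.130% in *Mgp*-KO (0.0757 to 0.208) and 1.29% in *Pd*-KO (1.07 to 1.54). The log2 ratio of shares over wild-type was -1.93 (-2.80 to -1.12) for *Mgp*-KO and 1.39 (0.92 to 1.87) for *Pd*-KO. Without members that held markers of other cells they were -0.55 and 2.77, and with barcodes of at least 500 UMIs, of which wild-type had 34876, they were -0.34 and 2.90. The size of the *Mgp*-KO difference thus depended on these choices. The shares also rested on the fixed UMI limits of the rule. After each barcode had been thinned to 3000 UMIs, which left out 1230, 1380 and 1016 shallower barcodes, the shares were 0.929%, 0.0598% and 1.02%, and the log2 ratio for *Pd*-KO was 0.14. This step brought the wild-type count from 56 to 94, that of *Mgp*-KO from 17 to 7 and that of *Pd*-KO from 119 to 84. The higher share of *Pd*-KO was thus not held at an equal total of UMIs per barcode, which is all that the step matched. Thinning also lowered the counts of *Myh11* and of the excluded genes, so barcodes that the rule had left out could enter. Levels after thinning, here and below, sum all UMIs of the members so chosen. In wild-type, *Acta2* was then 3003 CPM against 2167 before, *Kcnj8* 236 against 386 and *Ednrb* 109 against 218. In *Pd*-KO they were 916 against 627, 781 against 927 and 770 against 997 CPM.

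Relative to smooth muscle, the *Pd*-KO library stood apart at either depth. There were 5.70 pericytes per 100 smooth muscle barcodes in wild-type, 5.82 in *Mgp*-KO and 43.9 in *Pd*-KO. After thinning the values were 12.8, 3.98 and 47.5. Smooth muscle barcodes themselves were 8.66%, 2.23% and 2.94% of the kept barcodes. With UMIs as deposited, the lower share of *Mgp*-KO pericytes was thus matched by a lower share of smooth muscle in that library. After thinning it was not, with 3.98 pericytes per 100 smooth muscle barcodes against 12.8 in wild-type. Among barcodes with at least 5 *Rgs5* UMIs, 9.62% of 582 were members in wild-type, 37.8% of 45 in *Mgp*-KO and 34.1% of 349 in *Pd*-KO. Most of those left out in wild-type, 471 barcodes, had too many *Myh11* UMIs. In female barcodes, called by *Xist* without Y-linked UMIs, the share was 0.422% in wild-type and 1.28% in *Pd*-KO, and in male barcodes it was 0.426% and 0.981%. Of the *Mgp*-KO members, 8 were called female and 1 male.

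**Figure D1:**
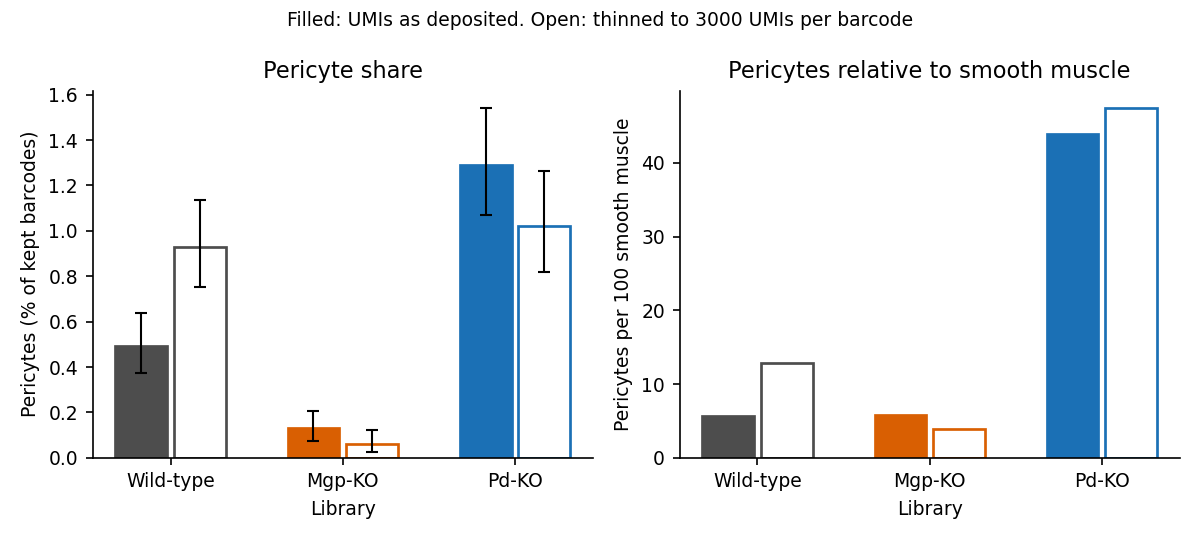
Left, pericytes as a percentage of kept barcodes in each library, with 95% Clopper-Pearson intervals for counting error; right, pericytes per 100 smooth muscle barcodes. Filled bars are UMIs as deposited and open bars barcodes thinned to 3000 UMIs; the left-hand difference between *Pd*-KO and wild-type narrows from 1.29% against 0.493% to 1.02% against 0.929%, while on the right *Pd*-KO stays highest, at 43.9 and 47.5.

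Members near the limits of the rule were compared by their levels. In the *Pd*-KO library, the 12 members with exactly 5 *Rgs5* UMIs had 730 CPM of *Kcnj8*, and the 15 barcodes just outside, with 4 *Rgs5* UMIs, had 817 CPM. In wild-type the 4 members with exactly 5 *Rgs5* UMIs had 32.2 CPM (1 UMI) of *Kcnj8* and none of *Ednrb*, and most of their UMIs came from 1 member with 22739, while the 5 barcodes with 4 had 215 and 172 CPM. At the other limit, 29 *Pd*-KO members with 1 *Myh11* UMI had 494 CPM of *Kcnj8* and 502 CPM of *Ednrb*, and the 15 barcodes just outside, with 2 *Myh11* UMIs, had 269 and 57.7 CPM. The wild-type members with 1 *Myh11* UMI (25 barcodes) had 127 CPM of *Kcnj8*, and the 30 barcodes with 2 had 160 CPM. Their *Ednrb* was 127 and 44.9 CPM. In *Mgp*-KO, 8 members with 1 *Myh11* UMI had 385 CPM of *Kcnj8* and the 4 barcodes with 2 had 95.8 CPM. Levels of *Ednrb* in wild-type and *Pd*-KO and of *Kcnj8* in both knockouts were thus higher just inside the limit on *Myh11*, and *Kcnj8* in wild-type was not.

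Against smooth muscle, 7 of the 18 pericyte markers that were compared were at least 2-fold higher in the pericytes of all 3 libraries and none was lower. Over all 5567 genes with at least 50 CPM in a class of a library, 2.86% were higher by this rule (159 genes) and 3.29% lower (183 genes). The 7 markers were *Kcnj8*, *Abcc9*, *Ednrb*, *Steap4*, *Art3*, *Higd1b* and *Pdgfrb*, and the median log2 ratio of the list was 0.81 in wild-type, 2.25 in *Mgp*-KO and 0.62 in *Pd*-KO, against 0.09, 0.36 and 0.15 over all genes. *Kcnj8* stood at 386, 426 and 927 CPM in the pericytes of wild-type, *Mgp*-KO and *Pd*-KO mice and at 16.3, 15.7 and 48.9 CPM in their smooth muscle barcodes. *Abcc9* stood at 297, 703 and 1121 CPM against 28.8, 20.0 and 99.7 CPM. *Ednrb*, the endothelin B receptor, stood at 218, 352 and 997 CPM against 21.1, 33.9 and 32.4 CPM. For these 3 genes every pericyte value lay above every smooth muscle value. *Steap4*, a metalloreductase, stood at 300, 500 and 801 CPM against 63.4, 39.3 and 106 CPM, and *Art3*, an ADP-ribosyltransferase family member, at 208, 259 and 442 CPM against 54.0, 18.8 and 94.4 CPM.

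Other mural markers were present in both classes. *Notch3*, the Notch receptor of mural cells, stood at 444, 759 and 1066 CPM in pericytes and 476, 229 and 857 CPM in smooth muscle. *Tinagl1*, a matricellular protein, stood at 803, 1000 and 1140 CPM against 636, 494 and 785 CPM. *Des*, the intermediate filament desmin, stood at 687, 777 and 575 CPM against 380, 169 and 476 CPM. Thus, of the 5 genes that named the cell type, *Ednrb* set the pericytes apart in every library, *Notch3*, *Tinagl1* and *Des* were not past 2-fold in all 3, and *Rgs5* was used by the rule. *Cspg4*, which encodes the proteoglycan NG2, stood at 61.3, 37.0 and 90.7 CPM against 99.1, 46.0 and 118 CPM, so it was not higher in pericytes. *Rgs4*, a relative of *Rgs5*, also failed to separate the classes (211, 241 and 167 CPM against 324, 153 and 217 CPM).

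**Figure D2:**
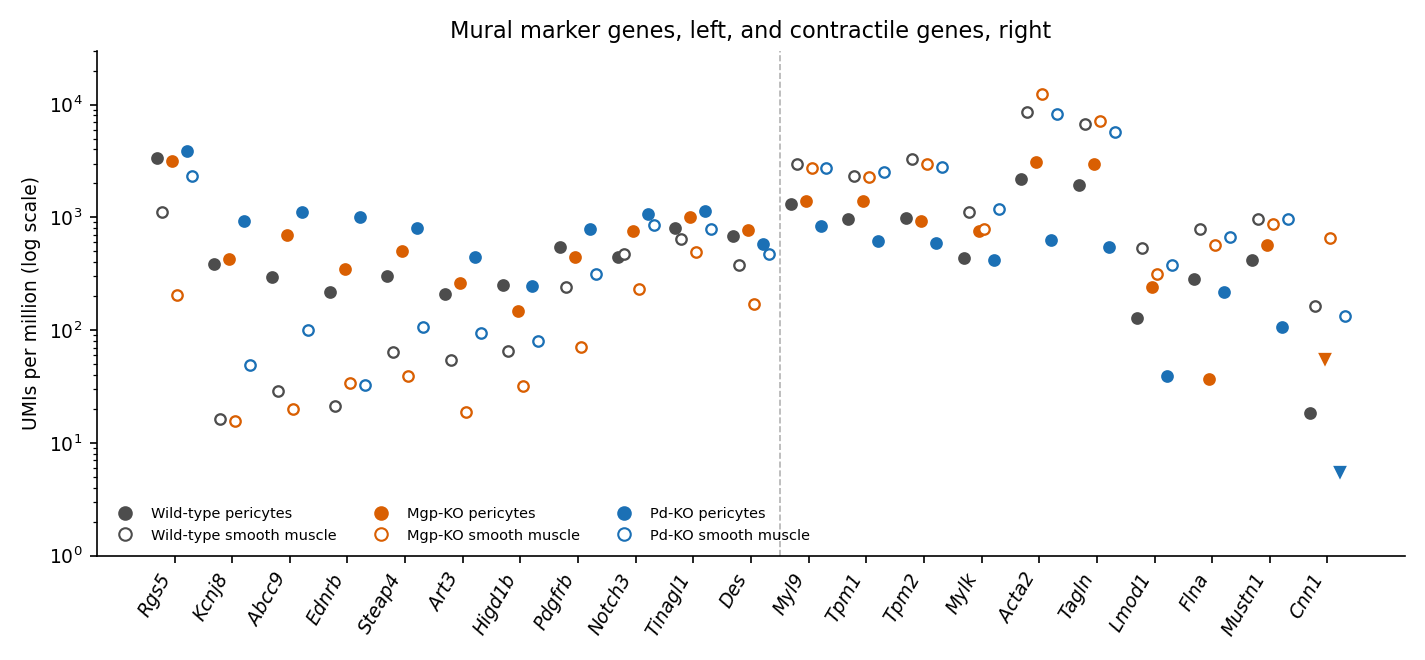
CPM on a log axis for pericyte markers (left of the dashed line) and contractile genes (right), in pericytes (filled) and smooth muscle barcodes (open) of the 3 libraries; a downward triangle stands at the level of 3 UMIs where a gene had none. *Kcnj8*, *Abcc9* and *Ednrb* show no overlap between the classes, whereas *Notch3* does, and *Acta2* and *Tagln*, which chose the smooth muscle barcodes, are shown for their levels only.

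A part of the contractile genes was lower in the pericytes. Of 21 contractile genes compared outside the rule, 7 were at least 2-fold lower in all 3 libraries (*Cnn1*, *Actg2*, *Flna*, *Itga8*, *Pln*, *Smtn* and *Tpm2*), against 3.29% of all genes, and none was higher. *Cnn1*, the actin-binding protein calponin, had 6 UMIs in wild-type pericytes, all in 2 members, and none in the knockouts, against 162, 661 and 135 CPM in smooth muscle. *Tpm2*, a tropomyosin, stood at 996, 926 and 587 CPM against 3301, 3001 and 2782 CPM. *Myl9*, a myosin light chain, remained at 1303, 1388 and 846 CPM in pericytes, against 2947, 2745 and 2716 CPM. *Acta2* itself, the alpha-actin of smooth muscle, was 2167, 3091 and 627 CPM in pericytes. *Myocd*, the co-activator of serum response factor in smooth muscle, had 1 UMI in wild-type and 1 in *Pd*-KO pericytes and was at 54.2, 38.7 and 89.2 CPM in smooth muscle.

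Serum response factor binds the CArG box, and the RefSeq promoter windows (GRCm38.p6) were searched for it, to describe the contractile list. The box, whose pattern reads alike on both strands, was found in the 250 bases before the start of 2 of 21 contractile genes with a promoter entry, 0 of 15 pericyte markers and 439 of all 27025 genes (1.62%). The windows of the 2 matches are shown with the box in capitals, 5′ to 3′ on the strand of the gene: *Myl9* at chr2:156775293-156775322 on the plus strand and *Rergl*, a Ras-like gene of the contractile list, at chr6:139501939-139501968 on the minus strand. Neither gene was among the 7 lower in all 3 libraries, and a match of letters is no evidence of binding.
Myl9: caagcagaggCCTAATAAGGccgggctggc
Rergl: acaaggacagCCATAAAAGGcactttcaaa

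The choice of smooth muscle barcodes mattered for the lower genes. The 15 genes lowest in pericytes by the value nearest to 0 over the libraries included *Il17b*, *Krt5*, *Lcn2*, *Mia*, *Lgals7*, *Tes*, *Krt15*, *Krt17*, *Chil1*, *Ctnnd2*, *Upk3a*, *Cnn1*, *Oxtr* and *Ecrg4*. Several of these are known from myoepithelial or other epithelial cells, and at least 2 UMIs of *Krt14* were present in 34 of 983, 127 of 292 and 13 of 271 smooth muscle barcodes. When the exclusions of the pericyte rule were applied to smooth muscle too, an alternative chosen after seeing the data, 635, 131 and 211 smooth muscle barcodes were left and 1 of the 15 genes, *Cnn1*, was again among the 15 lowest. The others were now *Kcnab1*, *Myocd*, *Asb2*, *Fbxl22*, *Kcna5*, *Sh3bgr*, *Susd5*, *Sorbs2*, *Slc38a11*, *Kcnmb1*, *Pgam2*, *Ldb3*, *Inhba* and *Pln*, which include potassium channel subunits and proteins of the contractile apparatus. By this choice 19 of 22 contractile genes were lower in all 3 libraries, and 5 of 18 pericyte markers were higher. Of all 5472 genes compared so, 167 (3.05%) were lower and 208 (3.801%) higher.

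The 15 genes highest in pericytes were less affected, and 10 of them were shared between these choices. They were *Slc9b2*, *Tmem273*, *Treml1*, *Cyp26b1*, *Kcnj8*, *Mdga2*, *H2-M9*, *Ednrb*, *Abcc9*, *Lgi1*, *Gm14964*, *Htr7*, *Dpf3*, *Cela1* and *Gm47136*. The last had no UMI in either class of *Mgp*-KO, so its place there rests on the added 0.5 counts; of the 159 genes higher, 9 had 0 UMIs in the pericytes of a library, and 150 (2.69%) remain without them, a count made after seeing the data. Other places rest on few UMIs in wild-type and *Mgp*-KO pericytes: *Slc9b2* had 4 and 2, *Mdga2* 2 and 6, *Lgi1* 6 and 2, *Dpf3* 2 and 3 and *Cela1* 4 and 1. Each of them passed the level filter through the pericytes of 1 knockout library alone, so it could only be higher in pericytes. *Tmem273*, a small membrane protein, stood at 181, 296 and 390 CPM in pericytes and at 2.97, 3.02 and 7.92 CPM in smooth muscle. *H2-M9*, a non-classical histocompatibility gene with close relatives whose reads can be shared, stood at 303, 463 and 688 CPM against 22.5, 3.02 and 56.1 CPM. *Cyp26b1*, which degrades retinoic acid, stood at 120, 185 and 194 CPM against 5.51, 9.68 and 9.25 CPM. These genes were not spread evenly over members. In *Pd*-KO, *Tmem273* had a UMI in 77, *H2-M9* in 62 and *Cyp26b1* in 29 of 119 members, and in *Mgp*-KO 22 of the 25 *H2-M9* UMIs lay in 1 member. *Htr7*, a serotonin receptor, stood at 36.8, 55.5 and 283 CPM against 3.71, 3.02 and 30.4 CPM.

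Receptors for vasoactive ligands were among the genes higher in pericytes: 4 of 19 compared were higher in all 3 libraries and none lower, against 2.86% and 3.29% of all genes. *Agtr1a*, the angiotensin II receptor, stood at 211, 296 and 681 CPM against 43.1, 19.4 and 85.2 CPM in smooth muscle. *Avpr1a*, the vasopressin receptor, stood at 55.2, 92.6 and 163 CPM against 26.3, 22.4 and 30.4 CPM. *Ednrb*, described above, was also among the 4. *Ednra*, the endothelin A receptor, did not separate the classes (162, 92.6 and 266 CPM against 112, 68.4 and 225 CPM). Of 19 ion channel and calcium genes, *Kcnj8*, *Abcc9* and *Trpc6* were higher and *Kcna5*, *Ryr2*, *Pln* and *P2rx1* lower.

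Signalling, matrix and transcription factor lists were compared in the same way. Over all genes 2.86% were higher and 3.29% lower, and lists with 1 gene called of 20 or more lie near these shares. None of 12 Notch pathway genes was past 2-fold in all 3 libraries. Of 21 mural transcription factors, *Ebf1* was higher, at 1768, 3832 and 5233 CPM against 847, 638 and 1878 CPM, and *Myocd* was lower. Among 30 interstitial matrix genes *Timp3*, an inhibitor of metalloproteinases, was higher, at 1667, 1907 and 1776 CPM against 588, 394 and 460 CPM. *Col1a1*, *Fn1* and *Eln* were lower; elastin (*Eln*) stood at 264, 92.6 and 74.0 CPM against 658, 524 and 911 CPM. Of 20 basement membrane genes, 5 were lower (*Col4a6*, *Col15a1*, *Lamb2*, *Ntn4* and *Fbln5*), while the chains of the main basement membrane collagen were not past 2-fold (*Col4a1*, 1468, 1499 and 2058 CPM against 1315, 975 and 1348 CPM). *Nrp1* and *Pdgfrb* were higher and *Pdgfb*, the ligand made by endothelium, lower among 11 genes of PDGF, angiopoietin and VEGF signalling. *Bmpr1b* was higher and *Bmp6* and *Bmper* lower among 22 BMP pathway genes, and of 20 TGF-beta pathway genes *Pmepa1* was lower. *Rgs16* was higher among 4 RGS genes compared. Of 6 mineralization and 6 vitamin K genes, *Enpp1* and *Sox9* and, in turn, *Gas6* were lower. None of 12 adipogenic, 27 immediate early and heat shock, 16 interferon response, 18 chemokine and 10 hypoxia genes was past 2-fold in all 3 libraries, and of 7 nuclear-retained transcripts *Mir99ahg* was lower. With the exclusions of the pericyte rule applied to smooth muscle too, several of these calls were lost. Those of *Pdgfrb*, *Higd1b*, *Avpr1a*, *Ebf1*, *Col4a6*, *Fbln5*, *Bmpr1b*, *Rgs16*, *Enpp1*, *Sox9* and *Mir99ahg* did not hold in all 3 libraries. *Col1a1* (log2 ratio 0.73), *Col15a1* (0.56) and *Bmper* (0.56) turned to higher in wild-type pericytes, and *Col1a1* (0.39) and *Fn1* (0.50) in *Pd*-KO pericytes. The calls of *Agtr1a*, *Trpc6*, *Timp3*, *Nrp1*, *Eln*, *Lamb2*, *Ntn4*, *Pdgfb*, *Bmp6*, *Pmepa1*, *Gas6* and *Myocd* held. *Fabp4*, a fatty acid carrier that capillary endothelium and adipocytes hold in quantity, was at 12759, 17307 and 10787 CPM in pericytes and 11372, 3036 and 5866 CPM in smooth muscle, whereas *Adipoq*, which defines adipocytes, was detected in 1, 0 and 0 members.

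Members differed among themselves in *Acta2*, which the pericyte rule had not used. It ranged from 0 to 79 UMIs per member in wild-type (median 3), from 0 to 36 in *Mgp*-KO (median 4) and from 0 to 62 in *Pd*-KO (median 0). Members with 0 to 1 *Acta2* UMIs were 20 of 56 in wild-type, 8 of 17 in *Mgp*-KO and 89 of 119 in *Pd*-KO. Those with at least 10 were 22, 7 and 10. The channel genes were lower in the members with at least 10 *Acta2* UMIs than in those with 0 to 1. *Kcnj8* was 842 CPM in wild-type members with 0 to 1 *Acta2* UMIs, 220 CPM in those with 2 to 9 and 125 CPM in those with at least 10. In *Pd*-KO members the values were 1075, 599 and 373 CPM. In *Mgp*-KO members they were 695, 0 and 348 CPM, with 2 members in the middle step. *Ednrb* was 440, 65.9 and 140 CPM over these steps in wild-type and 1067, 1033 and 224 CPM in *Pd*-KO. *Notch3* was 561, 407 and 374 CPM over them in wild-type and 1034, 1107 and 1267 CPM in *Pd*-KO, so its order differed between these libraries. The 23 contractile genes outside the rules summed to 3705, 3902 and 10545 CPM in wild-type and 3275, 5754 and 10483 CPM in *Pd*-KO. Thus the members with at least 10 *Acta2* UMIs, 22 of 56 in wild-type, had a contractile sum nearer to that of smooth muscle (16434 CPM in wild-type) and little *Kcnj8*. Their 19 pericyte markers outside the rule summed to 6511 CPM in wild-type, 10187 CPM in *Mgp*-KO and 8819 CPM in *Pd*-KO. In smooth muscle this sum was 3890, 2519 and 4968 CPM. For these members the channel genes lend the label of pericyte little weight, while the sum of markers lay above that of smooth muscle.

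**Figure D3:**
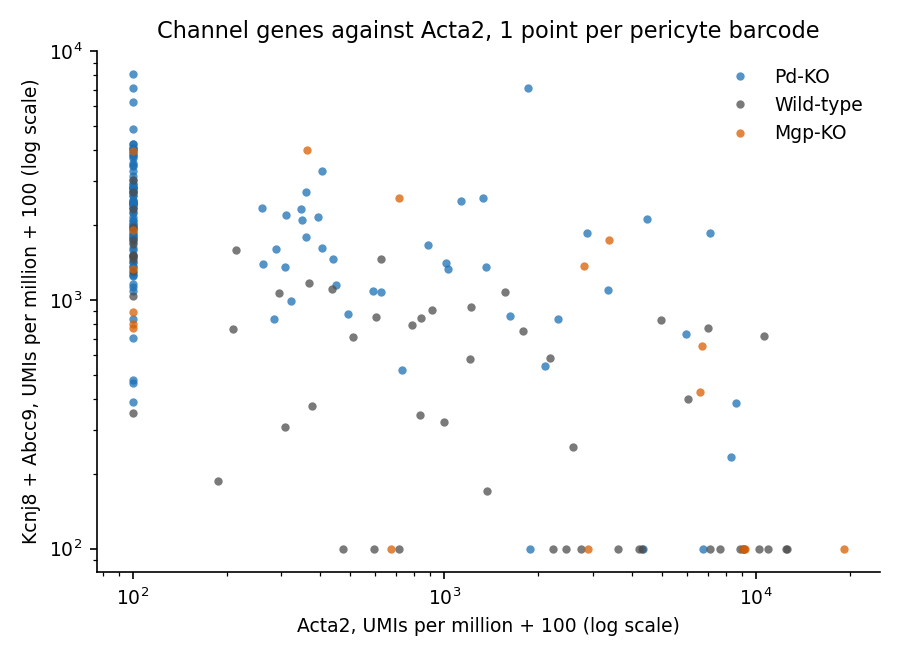
Each point is 1 member, with *Acta2* on the horizontal and the sum of *Kcnj8* and *Abcc9* on the vertical axis, in CPM of each member plus 100 on log axes, coloured by library. Members without *Acta2* line up at the left with high channel gene levels, most of them *Pd*-KO, and most of the members at the bottom, without channel gene UMIs, are wild-type; their *Acta2* runs from low to high.

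*Mgp* was present in a minority of pericytes. It lies on the minus strand of chromosome 6 (GRCm38, 136872435 to 136875823; ENSMUSG00000030218). Of wild-type members, 18 of 56 had a UMI and 10 had at least 5, and these 10 held 93.7% of the 189 *Mgp* UMIs of the class. In *Mgp*-KO, 0 of 17 members had a UMI, which allows a level of up to 55.5 CPM and, by the Clopper-Pearson interval, a share of up to 19.5% for members with a UMI. This limits detection at a median of 2864 UMIs per member, not expression. The level was 579 CPM in wild-type members (500 to 668), so the whole of this interval lay above the limit of 55.5 CPM for *Mgp*-KO members. Both values take UMIs as independent, although 10 wild-type members held most of them. Counted by members, the wild-type share with a UMI was 32.1% (20.3 to 46.0), above the *Mgp*-KO limit of 19.5%. The share with at least 5 was 17.9%, which lay within that limit.

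*Mgp* remained in *Pd*-KO pericytes. Here 20 of 119 members had a UMI, 18 had at least 5, and the 18 held 99.6% of 500 UMIs, with 122 in the highest. The level was 925 CPM (846 to 1010), against 29.1 CPM in *Pd*-KO smooth muscle, 18.4 CPM over all kept barcodes and 6.28 CPM in free RNA of that library. In wild-type the smooth muscle level was 278 CPM, that over all kept barcodes 451 CPM and that of free RNA 359 CPM. Between *Pd*-KO and wild-type the log2 ratio was 0.68 (0.43 to 0.92) in pericytes, -3.26 (-3.72 to -2.83) in smooth muscle and -4.62 (-4.70 to -4.54) over all kept barcodes. The first of these values was not stable. It was -0.41 (-0.58 to -0.24) among members chosen after thinning, with all their UMIs summed, and 1.73 (1.29 to 2.19) in female members. In male members it was -0.23 (-0.70 to 0.26). These intervals take UMIs as independent, although few members held most of the *Mgp* UMIs. Whether the level in *Pd*-KO pericytes was above or below that of wild-type pericytes therefore depended on the setting.

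The pericytes held a large part of the *Mgp* left in the *Pd*-KO library. They were 1.29% of its kept barcodes and held 35.4% of its *Mgp* UMIs, and 18 of its 60 barcodes with at least 5 *Mgp* UMIs were members. Of the other 42, 18 had *Rgs5*, 11 had *Pecam1* without *Rgs5*, 2 had *Pdgfra* and 11 had none of these. In wild-type, members held 0.286% of the *Mgp* UMIs and were 10 of 1534 barcodes with at least 5. The share of members with at least 5 *Mgp* UMIs was 17.9% in wild-type (8.91 to 30.4) and 15.1% in *Pd*-KO (9.22 to 22.8), with overlapping intervals. For smooth muscle the shares were 11.7% (9.76 to 13.9) and 0.369% (0.00934 to 2.04). Members with at least 5 *Mgp* UMIs did not stand out in *Acta2* in the same direction in both libraries (2514 CPM against 2377 CPM without *Mgp* in wild-type, 260 against 722 CPM in *Pd*-KO). Their *Ednrb* was 383 against 225 CPM in wild-type and 1402 against 888 CPM in *Pd*-KO.

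**Figure D4:**
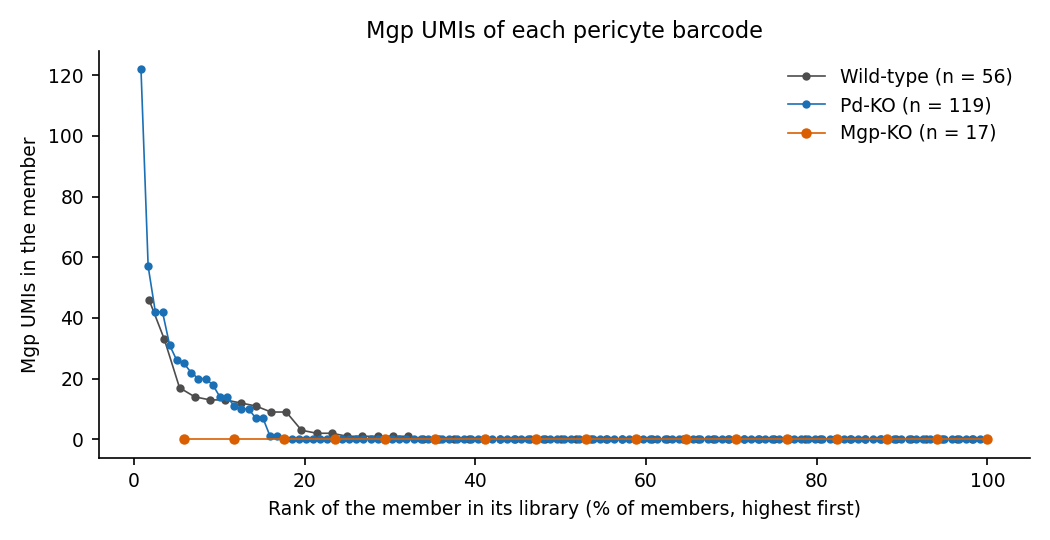
*Mgp* UMIs in each pericyte barcode, ranked within its library and plotted against rank as a percentage of the members. A short run of members holds nearly all *Mgp* in wild-type and *Pd*-KO (10 of 56 and 18 of 119 with at least 5 UMIs), and every *Mgp*-KO member is at 0.

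The knockout pericytes were then compared with wild-type pericytes, each across all genes with at least 50 CPM in either library. In *Pd*-KO, 995 of 4298 genes (23.2%) were at least 2-fold higher and 222 (5.17%) lower, and the median log2 ratio was 0.25. Scaling by the median ratio instead gave 676 higher and 449 lower. In *Mgp*-KO, 1594 of 4608 genes (34.6%) were higher and 363 (7.88%) lower, with a median of 0.50, and median-ratio scaling gave 710 higher and 835 lower. A gene that reached 50 CPM in 1 library alone could only be higher in that library, and in *Mgp*-KO pericytes 3 UMIs (55.5 CPM) were enough. At a limit of 500 CPM, chosen after seeing the data, 39 genes were higher and 16 lower in *Mgp*-KO. Both comparisons share the wild-type library, so likeness between them is not a result.

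These counts went with the genomic span of the genes. In *Pd*-KO pericytes the median log2 ratio was -0.31 for genes under 5 kb and 2.08 for genes of at least 200 kb, of which 301 of 354 (85.0%) were past 2-fold higher. The same bins gave -0.28 and 2.02 in smooth muscle and -0.45 and 2.20 over all kept barcodes. In *Mgp*-KO pericytes the medians ran from -0.09 to 1.84. The ratio was thus higher for longer genes in each of these classes. The 10 highest genes of *Pd*-KO pericytes, *Kcnq5*, *Nr3c2*, *Slc35f3*, *Gm30835*, *Zfp804b*, *Rad51b*, *Enox2*, *Lncppara*, *Pdss2* and *Prkg1*, spanned 53.9 kb to 1201 kb. *Prkg1*, the cGMP-dependent kinase of smooth muscle relaxation, stood at 46.0 CPM in wild-type, 1721 CPM in *Mgp*-KO and 1961 CPM in *Pd*-KO pericytes, and its log2 ratio for *Pd*-KO was 5.41 in pericytes, 4.17 in smooth muscle and 4.60 over all barcodes. The median ratio of the 200 genes closest in span was therefore subtracted from each gene, as an alternative chosen after seeing the data, which left 387 higher (9.004%) and 333 lower (7.75%) genes for *Pd*-KO and 801 (17.4%) and 639 (13.9%) for *Mgp*-KO. Ratios after this step are called span-adjusted below.

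**Figure D5:**
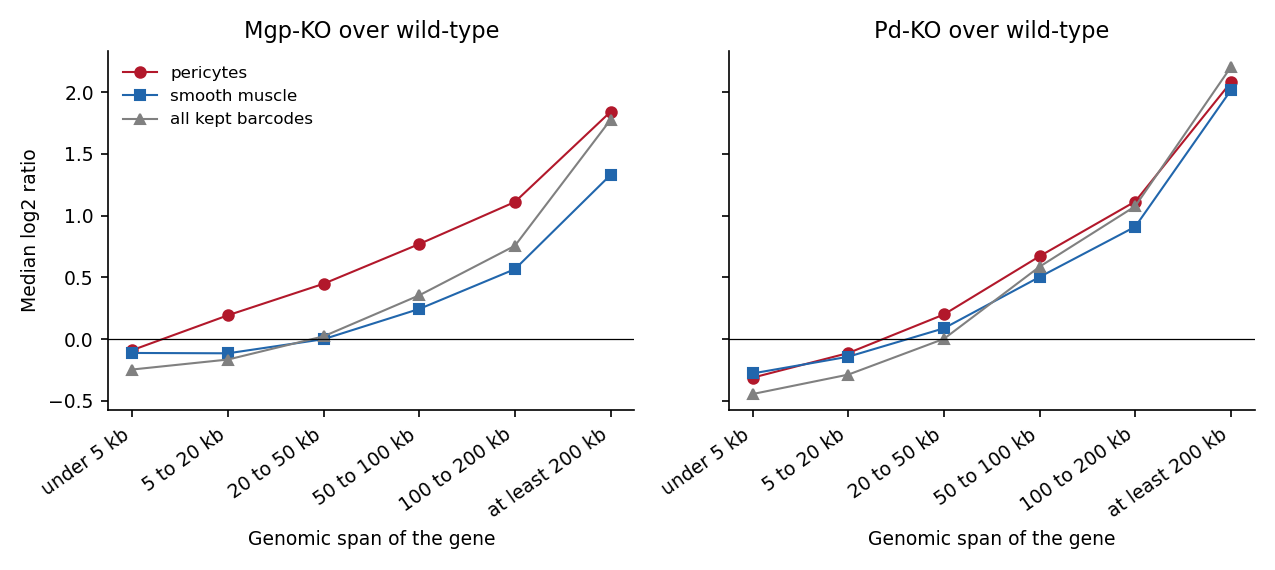
Median log2 ratio of each knockout over wild-type for genes in bins of genomic span, in pericytes, smooth muscle and all kept barcodes. All lines rise with span, from -0.31 to 2.08 for *Pd*-KO pericytes and from -0.09 to 1.84 for *Mgp*-KO pericytes.

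In *Pd*-KO, 7 of 17 pericyte markers were at least 2-fold higher than in wild-type pericytes and none was lower, and 4 were higher when span-adjusted. Over all genes the shares were 23.2% and, span-adjusted, 9.004%. *Ednrb* (29.8 kb) stood at 218 CPM in wild-type, 352 CPM in *Mgp*-KO and 997 CPM in *Pd*-KO. Its log2 ratio was 2.20 (1.84 to 2.57), 2.16 span-adjusted, and 0.62 in smooth muscle, and it had a UMI in 11 of 56 wild-type and 76 of 119 *Pd*-KO members. *Kcnj8* (6.78 kb) had a log2 ratio of 1.26 (0.98 to 1.56), 1.42 span-adjusted, and 1.58 in smooth muscle. *Abcc9*, a gene of 114 kb, had 1.92 (1.60 to 2.24) but 0.90 span-adjusted. *Steap4*, *Notch3*, *Mcam* and *Art3* were the others past 2-fold, of which *Notch3* (0.89) and *Art3* (0.27) were not when span-adjusted. *Des*, *Higd1b* and *Ndufa4l2* had log2 ratios of -0.25, -0.03 and 0.15, while *Gm13889* had -0.61 (-0.85 to -0.38). *Vtn*, which encodes vitronectin, had -0.91 (-1.36 to -0.47), from 285 CPM in wild-type to 152 CPM in *Pd*-KO members, and was lower in every subset of members computed, from -0.60 after thinning to -1.42 in male members. Among subsets of members, *Ednrb* stayed past 2-fold with 2.09 in members without markers of other cells, 2.82 after thinning, 2.00 with no *Myh11* UMI, 1.75 in female and 2.75 in male members. *Kcnj8* was not past 2-fold with no *Myh11* UMI (0.86) or in male members (0.38).

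Of 14 contractile genes outside the rules, 4 were past 2-fold lower in *Pd*-KO pericytes, against 5.17% of all genes (*Hspb1*, *Lmod1*, *Mustn1* and *Nexn*) and none was higher, and the median of the 14 was -0.51, against -0.08 in smooth muscle. *Acta2* was 2167 CPM in wild-type and 627 CPM in *Pd*-KO, a log2 ratio of -1.79 (-1.98 to -1.60), with -0.06 in smooth muscle. *Tagln*, which encodes transgelin, had -1.81 (-2.02 to -1.61) and -0.24 in smooth muscle. *Acta2* kept its direction past 2-fold in each subset, from -2.01 in members without markers of other cells to -1.11 in female members. These ratios went with the smaller part of *Pd*-KO members that had at least 10 *Acta2* UMIs, 8.40% against 39.3% in wild-type. *Kcnj8* among members with 0 to 1 *Acta2* UMIs was 842 CPM in wild-type and 1075 CPM in *Pd*-KO, whereas *Ednrb* among them was 440 and 1067 CPM.

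Among 16 vasoactive genes, 9 were higher and 3 lower in *Pd*-KO pericytes, and 7 and 3 when span-adjusted, against 23.2% and 5.17% of all genes, or 9.004% and 7.75% when span-adjusted. *Agtr1a* stood at 211 CPM in wild-type and 681 CPM in *Pd*-KO (log2 ratio 1.69, span-adjusted 1.31). *Avpr1a* stood at 55.2 and 163 CPM (1.56, span-adjusted 1.75). *Ramp1* and *Ramp2*, partners of the calcitonin receptor-like receptor, were lower, at 58.2 and 5.55 CPM and at 76.6 and 13.0 CPM. Both passed the level filter of 50 CPM through wild-type alone, so they could only be lower. All 10 ion channel and calcium genes called of 14 were higher, but 4 were when span-adjusted. Of 9 Notch pathway genes, 5 were higher and *Nrarp*, a feedback inhibitor of Notch signalling, was lower, and 1 and 2 were when span-adjusted. *Pparg*, the regulator of adipogenesis, stood at 156 CPM in wild-type, 426 CPM in *Mgp*-KO and 733 CPM in *Pd*-KO (*Pd*-KO log2 ratio 2.23, span-adjusted 1.14, in smooth muscle 1.14). Of the 11 adipogenic genes compared, *Pparg*, *Zfp423* and *Ebf2* were higher and *Cebpd*, *Lpl* and *Fabp5* lower, but when span-adjusted 2 were higher (*Pparg* and *Ebf2*) and 1 lower (*Lpl*). The 3 of 11 adipogenic genes higher before adjustment were near the 23.2% of all genes.

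Interferon response genes were higher in *Pd*-KO pericytes for 6 of 14 compared, against 23.2% of all genes, and none was lower. At least *Ifit1* and *Ifih1* among the 6 were under 50 CPM in wild-type. They passed the level filter through *Pd*-KO alone, so they could only be higher. *Bst2*, a membrane protein that tethers virions, stood at 199 CPM in wild-type, 167 CPM in *Mgp*-KO and 405 CPM in *Pd*-KO. *Isg15*, a ubiquitin-like modifier, stood at 110, 55.5 and 257 CPM. *Ifit1*, *Ifit3*, *Ifih1* and *Gbp7* were the others, and the list's median log2 ratio for *Pd*-KO was 0.63 in pericytes and 0.02 in smooth muscle. All 6 genes were also past 2-fold when span-adjusted, against 9.004% of all genes.

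Of 15 chemokine, cytokine and complement genes, 9 were past 2-fold lower in *Pd*-KO pericytes, against 5.17% of all genes, and none was higher, also when span-adjusted, with a median log2 ratio of -2.63 against -0.36 in smooth muscle. *Cxcl1*, a chemokine for neutrophils, stood at 313 CPM in wild-type, 796 CPM in *Mgp*-KO and 49.96 CPM in *Pd*-KO. *Cxcl10* stood at 162, 389 and 9.25 CPM. *Ccl2*, a chemokine for monocytes, stood at 116, 481 and 11.1 CPM. At least *Cxcl1*, *Cxcl10* and *Ccl2* among the 9 were under 50 CPM in *Pd*-KO. They passed the level filter through wild-type alone, so against wild-type they could only be lower. The wild-type *Ccl2* UMIs came from 8 of 56 members and those of *Mgp*-KO from 2 of 17. *Il6*, *Icam1*, *Vcam1*, *C3*, *Ccl11* and *Nfkbia* made up the rest. Immediate early and heat shock genes, which dissociation is known to induce, moved beside them: 17 of 25 were lower in *Pd*-KO pericytes and none higher, with a median of -1.36 in pericytes, -0.94 in smooth muscle and -1.32 over all barcodes. In *Mgp*-KO pericytes 14 of 26 were higher and 1 lower, with a median of 1.08 in pericytes, 0.36 in smooth muscle and 0.18 over all barcodes, where 34.6% of all genes were higher in pericytes with a median of 0.50. *Jun* stood at 1529, 3239 and 479 CPM and *Fos* at 1416, 3313 and 625 CPM. The part of dissociation in the chemokine and cytokine genes was not tested.

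The matrix genes of *Pd*-KO pericytes were compared last. None of 26 was higher and 7 were lower, against 5.17% of all genes, and 10 were lower when span-adjusted, against 7.75% (unadjusted, *Col3a1*, *Eln*, *Lox*, *Loxl1*, *Dcn*, *Lum* and *P4ha2*). *Eln* stood at 264 CPM in wild-type and 74.0 CPM in *Pd*-KO, with a log2 ratio of -1.83 (-2.41 to -1.28), against 0.47 in smooth muscle. *Col1a1* stood at 1683, 703 and 1338 CPM in wild-type, *Mgp*-KO and *Pd*-KO pericytes. *Dcn* and *Lum*, proteoglycans of fibroblasts, stood at 2087, 74.0 and 148 CPM and at 334, 0 and 33.3 CPM, with *Pd*-KO log2 ratios of -3.82 and -3.33 that became -2.04 and -1.94 after thinning. They belong to the progenitor markers that were high in wild-type members, of which 8 of 9 compared were lower in *Pd*-KO pericytes; the part of RNA from progenitors in the matrix genes was not tested. *Lum* was under 50 CPM in *Pd*-KO and passed the level filter through wild-type alone, so it could only be lower. Of 14 BMP pathway genes *Bmp5* and *Bmpr1b* were higher, and of 11 TGF-beta pathway genes *Tgfb1*, *Smad2* and *Ltbp1* were, and none of either list was lower. When span-adjusted, neither *Bmp5* nor *Bmpr1b* was past 2-fold and *Id4* was, and 1 TGF-beta pathway gene, *Tgfb1*, was higher and 1 lower. The unadjusted shares were near to or below those of all genes (23.2% higher).

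The 10 genes lowest in *Pd*-KO pericytes included *Cxcl9*, *Serpina1b*, *Clu*, *Ncmap*, *Mmp3*, *Col15a1*, *Cxcl13* and *Gm10260*. *Ncmap* was found in 2 wild-type members, and 155 of the 158 *Cxcl9* UMIs and 71 of the 79 *Cxcl13* UMIs of the wild-type members lay in 1 member each. *Col15a1*, a basement membrane collagen, was spread over 16 wild-type members at 79.7 CPM and was at 0 in *Pd*-KO. The upper limit of its log2 ratio was -3.44. After thinning, however, which changed the members, it stood at 94.9 and 55.6 CPM, a log2 ratio of -0.77 (-1.49 to -0.09). *Clu*, a secreted chaperone, was found in 11 wild-type members at 126 CPM and was at 0 in *Pd*-KO. The upper limit of its log2 ratio in pericytes was -4.14, and its log2 ratio was -4.32 in smooth muscle.

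The *Mgp*-KO pericytes, with 17 members, gave mostly values at the edge of detection. The 10 highest genes over wild-type were *Hist1h1b*, *Prc1*, *Glis3*, *Rassf9*, *Cfd*, *Gm26549*, *Rad51b*, *Spata5*, *Kcnq5* and *Cdk5rap2*, each with 4 to 14 UMIs, and those of *Hist1h1b*, *Prc1*, *Rassf9* and *Cfd* came from a single member each. *Hist1h1b* and *Prc1* are genes of dividing cells, and 5 of 6 cycling markers compared were higher, with *Top2a* having 10 UMIs in 2 members. These 5 (*Cdk1*, *Mki67*, *Pclaf*, *Top2a* and *Tpx2*) were under the level filter in wild-type. They passed it through *Mgp*-KO alone, so they could only be higher, and their count is no evidence of a difference. The 10 lowest included *Lum*, *Igfbp6*, *Cxcl13*, *Dcn*, *Mbp*, *Glycam1*, *Cxcl9*, *Mfap5* and *Clec3b*; those named are markers of Schwann cells or progenitors or were held by few wild-type members, apart from *Glycam1*, which had a UMI in 32 of 56 and stood at 249 CPM in wild-type and 0 CPM in *Mgp*-KO smooth muscle. Of 17 pericyte markers 3 were higher (*Mcam*, *Abcc9* and *Gm13889*) and none lower, and 1 was when span-adjusted. *Kcnj8* had a log2 ratio of 0.14 (-0.57 to 0.79) and *Ednrb* of 0.69 (-0.12 to 1.44), so no difference was detectable at this depth. Of 15 contractile genes 2 were higher and *Flna* was lower, and *Acta2* had a log2 ratio of 0.51 (0.26 to 0.76), with 0.54 in smooth muscle. The median of the pericyte markers, 0.33, lay under the median of all genes, 0.50, so relative to all genes these markers were not higher on the median. Of 17 chemokine, cytokine and complement genes 8 were higher (among them *Cxcl1*, *Cxcl10*, *Ccl2*, *Ccl7*, *Nfkbia*, *Nfkb1* and *Icam1*) and *Ccl11* and *C3* were lower. Of 13 TGF-beta pathway genes 8 were higher and none lower, but 5 and 2 were when span-adjusted, and of 14 BMP pathway genes 5 were higher and none lower, but 2 and 2 when span-adjusted. Among all genes 34.6% were higher and 7.88% lower in *Mgp*-KO, so the BMP pathway genes were near the first share and the pericyte markers and contractile genes below it. When span-adjusted, 17.4% of all genes were higher and 13.9% lower.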

How the data were processed

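The 3 matrices that the authors deposited hold unnormalized UMI counts of 32285 genes in unfiltered barcodes. The study's methods name 10x Genomics 3′ v3 libraries, Cell Ranger v6.1.1 with default settings and mm10; the submitters' processing notes name GRCm39, and the file headers other versions of Cell Ranger. Since these differ, how reads of introns were counted in each file is not given in the sources used here. The files held 184102026 (wild-type), 93212243 (*Mgp*-KO) and 83942865 (*Pd*-KO) UMIs. The members and the gene lists were chosen with earlier results of these data known.

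Counts were summed per library and class with Python 3.11.15 (numpy 2.4.6, scipy 1.17.1, pandas 2.3.3). Shares have Clopper-Pearson intervals, sums Poisson intervals and log2 ratios conditional binomial intervals, all exact and at 95%. UMIs are counted molecules, so these cover counting error only. Genes with at least 50 CPM were compared, with 0.5 counts added, and called past 2-fold; against smooth muscle, in all 3 libraries. Genes with a shared symbol were left out. Named genes were the marker lists, the 15 highest and lowest against smooth muscle, the 10 highest and lowest for each knockout and members of fixed lists, without *Xist*, Y-linked and mitochondrial genes; some genes that the rule named are not reported here. For 99.8% of the genes a span was read from the GENCODE M21 annotation (GRCm38). No doublet caller was run; members above 2 times the median UMIs were left out in an alternative. The calculations were tested on simulated counts. Alternatives changed the UMI, *Rgs5*, *Myh11* and mitochondrial limits, thinning, sex, scaling and the level filter.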

Additional observations from a re-analysis of the deposited data

How the results depend on the processing

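No paired analysis was possible because each genotype had 1 library. The *Mgp* count of *Mgp*-KO pericytes was also 0 with barcodes of at least 500 UMIs, with at least 3 *Rgs5* UMIs and after thinning; the other alternatives could not change it. The log2 ratio of pericyte shares for *Mgp*-KO (-1.93) became -0.34 with barcodes of at least 500 UMIs, -3.49 with at least 10 *Rgs5* UMIs, -3.96 after thinning, -0.55 without members that held any of 5 markers of other cells (*Cdh5*, *Ptprc*, *Adipoq* and *Dpt* among them) and -2.99 in male barcodes, and it reversed to 0.0296 as a share of pericytes and smooth muscle, an alternative chosen after seeing the data. For *Pd*-KO (1.39) it became 2.90 at 500 UMIs, 0.14 after thinning, 2.77 without those members and 2.50 as a share of pericytes and smooth muscle. The *Mgp* log2 ratio between *Pd*-KO and wild-type pericytes (0.68) reversed to -0.41 among members chosen after thinning and to -0.23 (-0.70 to 0.26) in male members. It was 0.0841 with at least 10 *Rgs5* UMIs, 1.52 with no *Myh11* and 1.097 at a mitochondrial limit of 5%. Without members above 2 times the median UMIs it was 0.32, in female members 1.73 and with median-ratio scaling 0.36. The cause was not tested.

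Genes higher in *Mgp*-KO pericytes (1594) became 3028 with at least 10 *Rgs5* UMIs (4 members), 2403 in male members (1 member), 710 with median-ratio scaling, 5220 with no level filter, 801 span-adjusted and 39 at 500 CPM. Those lower (363) became 692 with at least 10 *Rgs5* UMIs, 585 with no *Myh11*, 658 in female members, 835 with median-ratio scaling, 956 at 20 CPM, 1153 with no filter, 639 span-adjusted and 16 at 500 CPM. For *Pd*-KO, genes higher (995) became 1885 at 20 CPM, 3385 with no filter, 387 span-adjusted and 44 at 500 CPM. Those lower (222) became 350 without members that held markers of other cells, 487 in female and 471 in male members, 449 with median-ratio scaling, 505 at 20 CPM, 1943 with no filter and 33 at 500 CPM. The span adjustment and the limit of 500 CPM were chosen after seeing the data. Against smooth muscle, genes higher (159) became 248 with at least 10 *Rgs5* UMIs, 251 in female and 315 in male barcodes, 246 at 20 CPM and 4323 with no filter, and those lower (183) became 43 in male barcodes. Depth limits the *Mgp*-KO values most, since 3 UMIs there amount to 55.5 CPM.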
